A study of Mus musculus with 6 samples.

Results

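Activated group 2 innate lymphoid cells (aILC2s) were examined for 10 genes of lipid uptake, storage and fatty acid synthesis, of 16381 genes listed for the series. The 10 were listed by their roles: *Pparg*, *Cd36*, *Fabp5*, *Dgat1*, *Dgat2*, *Plin2*, *Scd1*, *Scd2*, *Fasn* and *Acaca*. All 10 were in the table and all 10 were among the 14419 genes tested. The lung aILC2s came from wild-type BALB/cJ mice, described by the study as females of 6 to 8 weeks, which had all received 0.5 µg of IL-33 into the nose on each of 3 days. ILC2s were sorted as live CD45+, ST2+ and CD127+ cells, with cells carrying CD3, CD11b, CD11c and other lineage proteins excluded. The vehicle group (n = 3) was then cultured for 24 h with DMSO, and the melatonin group (n = 3) for 24 h with 250 µM melatonin. Both groups were therefore IL-33 activated, and no unchallenged cells were included. Bulk RNA was sequenced, and the question was which transcripts differed between melatonin and vehicle. The labels do not say whether replicates came from separate animals, so p-values measure only the spread between these samples.

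Fatty acids enter cells partly through CD36, a membrane receptor, and are carried in the cytosol by fatty acid binding proteins such as FABP5. Cells also make them from acetyl-CoA through acetyl-CoA carboxylase (encoded by *Acaca*) and fatty acid synthase (*Fasn*), and stearoyl-CoA desaturases (*Scd1*, *Scd2*) add a double bond. DGAT1 and DGAT2 join a further fatty acid to diacylglycerol to form triglyceride, which is kept in droplets coated by perilipin 2 (*Plin2*), and PPARγ (*Pparg*) is a nuclear receptor that activates many of these genes. Lung ILC2s are known to take up and store lipid when activated.

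Values are normalized counts, a signal in which reads per gene were divided by a size factor of the sample. Reads assigned to the listed genes per sample, estimated from the spacing of low values, ranged from 17057001 to 20511765. All 15 ILC2 markers sought were present. Marker sums of other cells were small beside ILC2 markers, which summed to 227633 to 242708 in vehicle and 154199 to 174017 in melatonin, and most of those sums were lower with melatonin. The largest of them in vehicle, for T cells, was 5126 to 5559 in vehicle and 1750 to 2452 in melatonin. Most of it was *Trbc2*, at 3444 to 3747 in vehicle and 1278 to 1706 in melatonin. *Trbc1* was at 1395 to 1511 in vehicle and 391 to 598 in melatonin. In vehicle *Cd3e* was at 192 to 226 and *Cd3d* at 7.34 to 14.9, and *Cd4* and *Cd8a* were not listed. How far this sum reflects T cells was not tested. The melatonin libraries did not match each other in sex-linked transcripts. *Xist* was 0, 579 and 1091 in melatonin 1 to 3 against 5.81 to 13.6 in vehicle, while Y-linked *Ddx3y* was 1071 in melatonin 1, 746 to 907 in vehicle and 0 in melatonin 2 and 3. *Eif2s3y*, *Kdm5d* and *Uty*, also Y-linked, were likewise at 0 in melatonin 2 and 3 only. The Y-linked transcripts in 4 of the 6 libraries, all 3 vehicle libraries and melatonin 1, go against the stated female sex. Melatonin 2 and 3 therefore stood apart from the other 4 libraries, and each of the 10 genes is given with and without them. None of the 10 genes is on a sex chromosome.

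Of the 10 genes, 6 were lower with melatonin (*Pparg*, *Cd36*, *Fabp5*, *Plin2*, *Fasn*, *Acaca*), 1 was higher (*Dgat2*) and 3 did not pass the test (*Dgat1*, *Scd1*, *Scd2*). The test was limma on log2(normalized count + 1), with an adjusted p below 0.05 counted as a call. Calls were common across the transcriptome: 49.2% of all 14419 genes were called, 24.7% lower and 24.5% higher. The 10 were chosen with earlier results of these data known, so their share of calls is a description. Where melatonin 1 was the only melatonin sample, only the size of a change is given, as 1 sample holds no spread of its group. The median log2 fold change was -0.47 over the 10 genes and -0.0046 over all genes tested. The groups did not overlap for 6 of the 10, against 60.4% of all genes tested. In 5 of the 10 every melatonin sample lay below every vehicle sample, and in 1 every melatonin sample lay above, whereas 30.3% and 30.0% of all genes showed those patterns.

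**Figure D1:**
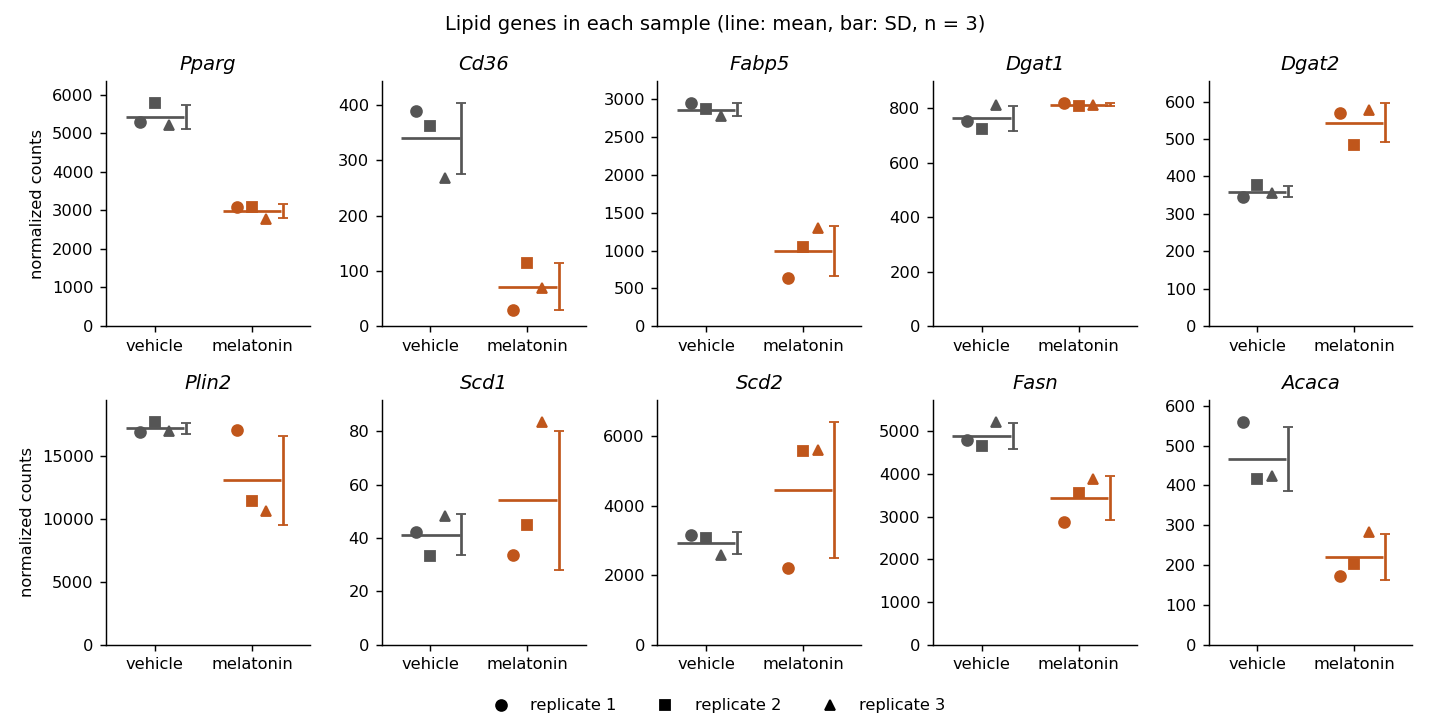
Normalized counts (y axis, from 0) of the 10 lipid genes in each vehicle (grey) and melatonin (orange) sample, with the mean as a line, the SD as a bar and the replicate number as the marker shape. *Pparg*, *Cd36*, *Fabp5*, *Fasn* and *Acaca* sat lower in every melatonin sample, *Dgat2* sat higher, and melatonin 1 sat apart from melatonin 2 and 3 for *Plin2* and *Scd2*.

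RefSeq promoter entries (table of build GRCm38.p6) matched 5 of the 10 genes: *Pparg*, *Cd36*, *Plin2*, *Fasn* and *Acaca*. *Fabp5*, *Dgat1*, *Dgat2*, *Scd1* and *Scd2* had no entry. Each window holds the 250 bases before a transcript start and was placed by an exact, single match in GRCm39. They are shown because all 5 genes with an entry were called lower, and short motifs were searched in them on both strands. Capitals mark 4 motifs on either strand, and adjoining capitals may belong to overlapping motifs. The first, AGGTCA, is the half-site of nuclear receptors, which PPARγ binds together with its partner RXR. The others are the CCAAT box, which is bound by the general factor NF-Y and is common near transcript starts, the GC box, spelled GGGCGG and bound by SP1, and the core of the antioxidant response element, spelled TGACNNNGC. For *Pparg*, which has 3 windows, the one with the most motifs is shown.
Pparg: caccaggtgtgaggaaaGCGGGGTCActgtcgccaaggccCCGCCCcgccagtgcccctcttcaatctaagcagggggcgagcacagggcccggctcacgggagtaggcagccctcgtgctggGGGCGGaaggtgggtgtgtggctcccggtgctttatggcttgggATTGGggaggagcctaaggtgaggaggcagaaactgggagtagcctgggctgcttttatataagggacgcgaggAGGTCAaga
Cd36: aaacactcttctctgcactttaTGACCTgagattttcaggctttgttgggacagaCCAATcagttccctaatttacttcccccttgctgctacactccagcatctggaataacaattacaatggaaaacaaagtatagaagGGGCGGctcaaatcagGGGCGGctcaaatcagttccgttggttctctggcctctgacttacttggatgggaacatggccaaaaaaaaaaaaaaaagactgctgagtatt
Plin2: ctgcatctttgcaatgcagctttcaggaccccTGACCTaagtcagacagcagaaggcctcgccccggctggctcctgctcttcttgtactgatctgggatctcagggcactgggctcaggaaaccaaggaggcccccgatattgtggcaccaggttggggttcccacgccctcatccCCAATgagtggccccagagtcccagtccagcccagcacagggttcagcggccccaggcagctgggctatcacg
Fasn: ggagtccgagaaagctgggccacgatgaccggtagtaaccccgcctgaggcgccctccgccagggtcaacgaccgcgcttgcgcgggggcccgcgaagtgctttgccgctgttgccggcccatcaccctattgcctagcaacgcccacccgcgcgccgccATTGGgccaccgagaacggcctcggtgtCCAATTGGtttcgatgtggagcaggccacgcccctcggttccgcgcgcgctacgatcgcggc

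The *Pparg* window lies at chr6:115339060-115339309 on the plus strand, the *Cd36* window at chr5:18040895-18041144, the *Plin2* window at chr4:86588297-86588546 and the *Fasn* window at chr11:120715374-120715623, these 3 on the minus strand. Over all 7 windows of the 5 genes, AGGTCA was present in 4, of *Pparg* (2 windows), *Cd36* and *Plin2*, and in 14.0% of 32851 RefSeq promoter windows of the same length. CCAAT was in 5 of the 7, of *Pparg* (2 windows), *Cd36*, *Plin2* and *Fasn*, and in 33.8% of all windows, and the *Fasn* window held 3 copies, of which 2 overlap on opposite strands. GGGCGG was in 3 of the 7, of *Pparg* (2 windows) and *Cd36*, and in 32.7% of all windows. TGACNNNGC was in 1 of the 7, the *Pparg* window shown, and in 10.2% of all windows. As that window was picked for its motifs, the 4 windows shown are not a fair sample for these shares. The *Acaca* window, at chr11:84086014-84086263, held none of these letters. CACGTG (an E-box, in 6.02% of all windows) and TCACNCCAC (a sterol regulatory element, in 1.05%) were also sought and were not in the windows of these 5 genes. *Pparg* alone gave 3 of the 7 windows, and no gene of the 10 that was higher or not called had an entry. The shares therefore cannot be tied to the lower levels of these genes. A match describes letters in a window and says nothing of binding.

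*Pparg*, which encodes the lipid-sensing nuclear receptor, was lower with melatonin. *Pparg* (ENSMUSG00000000440, chr6:115337675-115468268, plus strand, GRCm39) was at 5290, 5775 and 5208 in vehicle and at 3082, 3080 and 2774 in melatonin. The groups did not overlap, and the melatonin samples lay close together. The means were 5424 ± 306 and 2979 ± 177 (SD, n = 3), so melatonin samples held 54.9% of the vehicle level. The log2 fold change was -0.86 (SE 0.08, 95% interval -1.05 to -0.68, limma adjusted p = 0.000104). It was -0.81 with melatonin 1 alone and -0.89 with melatonin 2 and 3.

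Both genes of fatty acid uptake and transport among the 10, *Cd36* and *Fabp5*, were lower. *Cd36* (ENSMUSG00000002944, chr5:17986432-18094067, minus strand), the membrane receptor for long-chain fatty acids, was at 388, 363 and 268 in vehicle and at 29.9, 115 and 69.4 in melatonin. Each melatonin value was below the lowest vehicle value, and melatonin 1 was the lowest. The means were 339 ± 63.6 and 71.3 ± 42.5 (SD, n = 3), or 21.0% of vehicle. The log2 fold change of *Cd36* was -2.41 (SE 0.41, 95% interval -3.35 to -1.48, limma adjusted p = 0.00167), the largest fall among the 10 genes. With melatonin 1 as the only melatonin sample it was -3.44, and without melatonin 1 it was -1.90, so both were negative. The part of the sex-linked difference between libraries in this result was not tested.

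*Cd36* is also expressed by alveolar macrophages and endothelium, and the summed markers of both were lower in melatonin as well. Of 15 alveolar macrophage markers 10 were in the table, with *Marco*, *Krt79*, *Fabp4*, *Cidec* and *Fabp1* not listed. Their sum was 3503 to 4529 in vehicle and 218, 2062 and 1555 in melatonin 1 to 3. Of the 9 that were tested, 6 were lower and 3 were not called. *Chil3*, the most abundant, was at 2373, 3460 and 2878 in vehicle and at 54.2, 1640 and 957 in melatonin, which did not pass the test (limma adjusted p = 0.0549), and *Lpl* was at 544, 516 and 631 and at 45.8, 226 and 347. Melatonin 1 was thus lowest for *Cd36*, *Chil3* and *Lpl* alike. Of 8 endothelial markers 3 were in the table, with a sum of 1149 to 1230 in vehicle and 459 to 607 in melatonin, and *Cdh5*, *Cldn5*, *Kdr*, *Gpihbp1* and *Tek* were not listed. Of the 3, 2 were lower and *Egfl7* was not called (log2 fold change 0.31), and most of the sum was *Pecam1*, at 1066, 1054 and 1001 in vehicle and 310, 416 and 344 in melatonin. Endothelial cells lack CD45 and alveolar macrophages carry CD11c, so the sort gate was meant to exclude both. *Itgax*, the gene of CD11c, was at 132, 113 and 106 in vehicle and at 1.87, 33.9 and 45.2 in melatonin. How fully the gate excluded such cells was not tested. In bulk RNA, fewer cells of a type and less RNA per cell cannot be told apart, and the part of such cells in the *Cd36* result was not tested. Alveolar macrophages also express *Pparg*, *Fabp5* and *Plin2*, and their part in those results was not tested either.

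**Figure D2:**
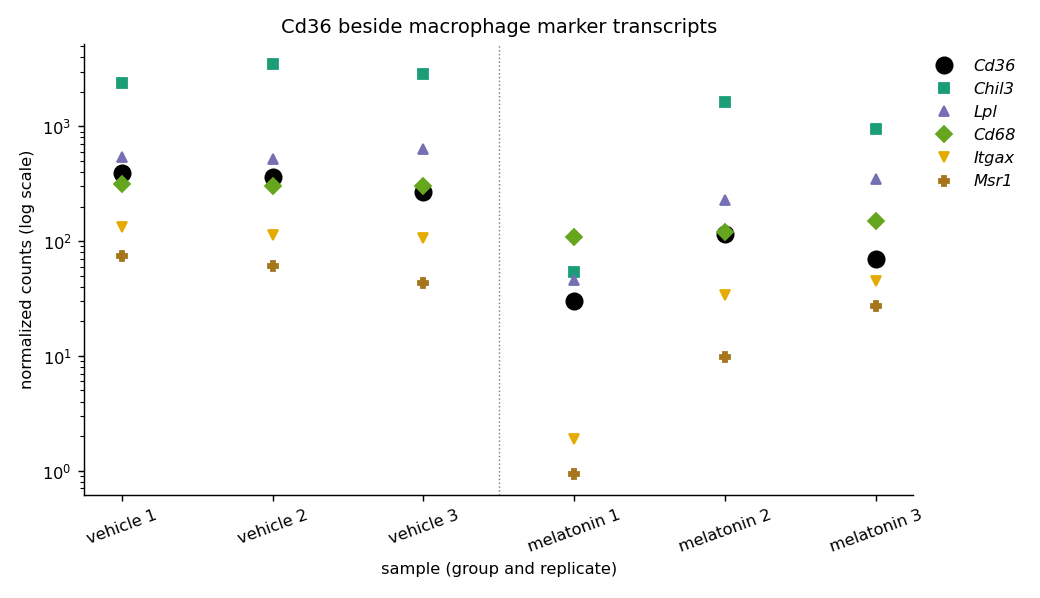
Normalized counts (log y axis) of *Cd36* and of 5 alveolar macrophage markers in each sample (x axis), the markers shown being the 5 with the highest vehicle means. *Cd36* and all 5 markers were lowest in melatonin 1, with *Cd36* at 29.9 and *Chil3* at 54.2.

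*Fabp5* (ENSMUSG00000027533, chr3:10077602-10081674, plus strand), a cytosolic fatty acid carrier, was at 2948, 2868 and 2779 in vehicle and at 641, 1046 and 1302 in melatonin. The vehicle samples differed little, and every melatonin sample was below them. The means were 2865 ± 84.6 and 996 ± 333 (SD, n = 3), or 34.8% of vehicle, a log2 fold change of -1.58 (SE 0.21, 95% interval -2.07 to -1.10, limma adjusted p = 0.000546). It was -2.16 with melatonin 1 alone and -1.29 without melatonin 1. Of the 50-base stretches in the *Fabp5* transcript, 21.0% also occur in 5 near-identical gene copies, so reads may have been split among them. The 4 copies in the table were added to *Fabp5*: the sum was 4248, 4122 and 4123 in vehicle and 964, 1468 and 1887 in melatonin, 34.6% of vehicle. *Fabp5* with its copies was therefore lower by nearly the same factor as *Fabp5* alone.

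*Acaca* and *Fasn*, which act in turn in fatty acid synthesis, were also lower. *Acaca* (ENSMUSG00000020532, chr11:84020476-84292477, plus strand), acetyl-CoA carboxylase, makes malonyl-CoA and sets the pace of the pathway. It was at 560, 415 and 423 in vehicle and at 171, 203 and 283 in melatonin. The groups did not overlap, with means of 466 ± 81.2 and 219 ± 57.6 (SD, n = 3), or 47.1% of vehicle. *Acaca* had a log2 fold change of -1.10 (SE 0.20, 95% interval -1.55 to -0.65, limma adjusted p = 0.00223), -1.42 with melatonin 1 alone and -0.94 without it. An unlisted pseudogene, *Gm5182*, shares 55.4% of the 50-base stretches of the *Acaca* transcript, so its counts are uncertain to that extent.

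*Fasn* (ENSMUSG00000025153, chr11:120696672-120715995, minus strand), which builds palmitate from malonyl-CoA, was at 4809, 4646 and 5224 in vehicle and at 2884, 3550 and 3889 in melatonin. All 3 melatonin samples were below vehicle, with means of 4893 ± 298 and 3441 ± 512 (SD, n = 3), or 70.3% of vehicle. *Fasn* had a log2 fold change of -0.52 (SE 0.11, 95% interval -0.77 to -0.26, limma adjusted p = 0.00554), -0.76 with melatonin 1 alone and -0.40 without it. Type 2 cells of the alveolar epithelium are strong makers of fatty acids, and their markers were also lower: 9 of 11 were in the table, with a sum of 3602 to 4157 in vehicle and 2568 to 2809 in melatonin, and 6 of the 8 tested were called lower. These cells lack CD45, so the sort gate was meant to exclude them, and how fully it did so was not tested. *Sftpc*, their defining marker, was at 155, 122 and 389 in vehicle and at 6.54, 5.46 and 3.02 in melatonin. Most of the sum was *Etv5* and *Lyz2*. *Etv5* was at 1911 to 1961 in vehicle and 1760 to 1999 in melatonin and was not called. *Lyz2* was at 912 to 1094 in vehicle and 252 to 635 in melatonin and was called lower. The part of such cells in the *Fasn* and *Acaca* results was not tested. Of 7 adipocyte markers 6, among them *Adipoq* and *Plin1*, were not listed, and none of 7 fibroblast markers was. Melatonin 1 was the lowest melatonin sample for *Cd36*, *Fabp5*, *Fasn* and *Acaca*, and for 53.7% of all genes called lower.

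The desaturases did not pass the test. *Scd2* (ENSMUSG00000025203, chr19:44281613-44295303, plus strand) was at 3144, 3078 and 2574 in vehicle and at 2200, 5583 and 5598 in melatonin. Melatonin 1 was below every vehicle sample and melatonin 2 and 3 were above every one, a pattern seen in 1.37% of all genes tested. The log2 fold change of *Scd2* was 0.49 (SE 0.31, 95% interval -0.22 to 1.20, limma adjusted p = 0.223). It was 0.94 (limma adjusted p = 0.000142) without melatonin 1 and -0.41 with melatonin 1 alone, so its direction depended on which libraries were used. *Scd1* (ENSMUSG00000037071, chr19:44382894-44399154, minus strand) was at 42.3, 33.0 and 48.2 in vehicle and at 33.7, 44.8 and 83.5 in melatonin, and the groups overlapped. Its log2 fold change was 0.30 (SE 0.35, 95% interval -0.49 to 1.08, limma adjusted p = 0.501), and it was -0.064 without melatonin 3 and -0.26 with melatonin 1 alone. Of the 50-base stretches in the *Scd1* transcript, 4.56% recur in *Scd2* or other *Scd* copies. The 2 genes lie 87.6 kb apart, and *Scd2* gave 98.2% to 99.2% of their joint counts in all samples. The log2 ratio of *Scd1* to *Scd2* changed by -0.19 (exact two-sided permutation test, p = 0.7, where 0.1 is the smallest p that 3 against 3 allows), with 0.019 without vehicle 3 and 0.11 without melatonin 2.

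Of the 2 enzymes that form triglyceride, *Dgat2* was called higher and *Dgat1* was not called. *Dgat2* (ENSMUSG00000030747, chr7:98802491-98831991, minus strand) was at 346, 377 and 356 in vehicle and at 570, 483 and 577 in melatonin. The groups did not overlap, and the means were 360 ± 15.5 and 543 ± 52.3 (SD, n = 3), or 151% of vehicle. For *Dgat2* the log2 fold change was 0.59 (SE 0.11, 95% interval 0.34 to 0.84, limma adjusted p = 0.00277), 0.66 with melatonin 1 alone and 0.55 without it. *Dgat2* was the only one of the 10 called higher.

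*Dgat1* (ENSMUSG00000022555, chr15:76385083-76396476, minus strand) was at 754, 722 and 811 in vehicle and at 818, 807 and 812 in melatonin, and the groups overlapped. Its log2 fold change was 0.093 (SE 0.087, 95% interval -0.10 to 0.29, limma adjusted p = 0.398), 0.10 with melatonin 1 alone and 0.088 without it. Its exons share 2486 bases with *Hsf1* on the opposite strand, and the cDNA kit does not keep strand, so reads there cannot be assigned with certainty. *Hsf1*, a heat shock transcription factor, was higher with melatonin, at a log2 fold change of 0.34 (limma adjusted p = 0.0309). The log2 ratio of *Dgat1* to *Dgat2* was 1.12, 0.94 and 1.19 in vehicle and 0.52, 0.74 and 0.49 in melatonin. The ratio was lower in all 3 melatonin samples, by a difference of -0.50 (exact two-sided permutation test, p = 0.1, the smallest possible here, so this test could not reach the threshold).

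*Plin2* (ENSMUSG00000028494, chr4:86565912-86588459, minus strand), the droplet coat protein, had the highest level per length of the 10. It was at 16978, 17757 and 16990 in vehicle and at 17132, 11464 and 10663 in melatonin. Melatonin 1 was within the vehicle range and melatonin 2 and 3 were below it, a pattern found in 2.33% of all genes tested. The means were 17241 ± 446 and 13086 ± 3527 (SD, n = 3), or 75.9% of vehicle. The log2 fold change of *Plin2* was -0.43 (SE 0.16, 95% interval -0.79 to -0.07, limma adjusted p = 0.0493), which just passed the threshold. It was -0.0088 with melatonin 1 alone and -0.64 (limma adjusted p = 0.00011) without it. Leaving out any 1 of the other 5 samples lost the call, with a log2 fold change of -0.44 to -0.30. A pseudogene, *Gm12551*, shares 8.70% of the 50-base stretches of the *Plin2* transcript and was at no more than 8.04 normalized counts.

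**Figure D3:**
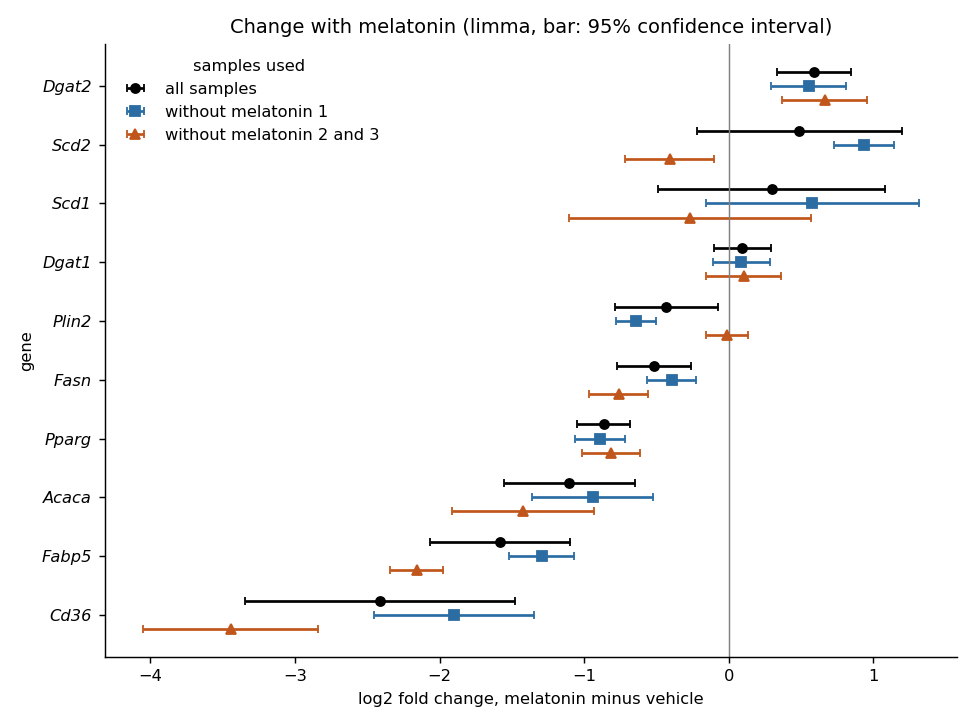
Log2 fold change between melatonin and vehicle (x axis) for each of the 10 genes (y axis), with 95% confidence intervals from limma, for all samples (black), without melatonin 1 (blue) and with melatonin 1 as the only melatonin sample (orange, which assumes that it varies as the vehicle samples do). *Pparg*, *Cd36*, *Fabp5*, *Fasn*, *Acaca* and *Dgat2* kept their side of 0 in all 3 fits, and *Scd2* ran from -0.41 to 0.94.

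Per kilobase of exon, *Plin2* led in vehicle at 2244 ± 58.1 normalized counts per kb (SD, n = 3). *Fabp5* (781) and *Pparg* (778) followed and were not separated by their samples, then *Fasn* (418) and *Scd2* (390), likewise not separated. *Dgat1* (168) and *Dgat2* (59.5) were lower, *Cd36* (26.9) and *Acaca* (25.3) overlapped each other, and *Scd1* (5.71) was lowest. In melatonin *Plin2* was still first at 1703, with *Scd2* at 593, *Pparg* at 427, *Fasn* at 294 and *Fabp5* at 272. *Scd2* was above *Pparg* in melatonin 2 and 3 but below it in melatonin 1 (292 against 442), and *Fasn* and *Fabp5* overlapped. *Cd36* (5.65) and *Scd1* (7.496) overlapped at the low end. With the length of the longest transcript in place of all exons, *Fabp5* and *Pparg* exchanged places in vehicle, as did *Fasn* and *Scd2*. As a share of both DGAT transcripts per kb, *Dgat2* made up 24.8% to 28.2% in vehicle and 31.1% to 34.9% in melatonin.

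**Figure D4:**
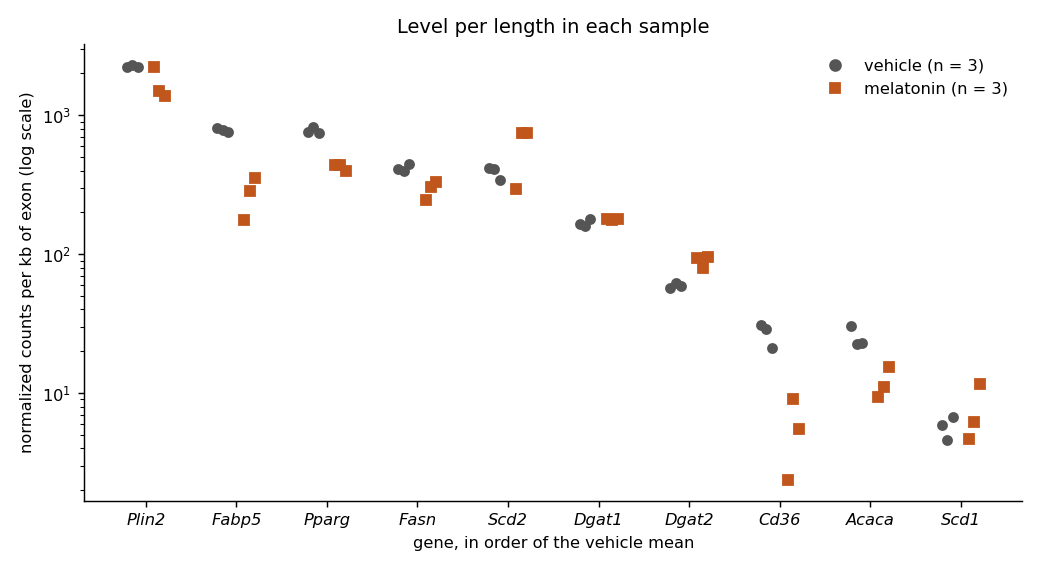
Normalized counts per kilobase of exon (log y axis) in each vehicle (grey circles) and melatonin (orange squares) sample, with the 10 genes in the order of their vehicle mean on the x axis. *Plin2* stood at the top in both groups, and *Cd36* fell from 26.9 to 5.65.

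The 10 genes were set beside 111 other tested genes of lipid metabolism, of which 42 were higher, 22 lower and 47 not called, with a median log2 fold change of 0.20 against -0.0046 over all genes tested. The counts of each list stand beside 24.5% higher and 24.7% lower over all genes. In fatty acid synthesis and modification 12 of 25 were higher and 3 lower, so that *Acaca* and *Fasn* fell while most called genes of the same pathway were higher. *Acly*, which supplies cytosolic acetyl-CoA, was at 6567, 6724 and 6557 in vehicle and at 9054, 9750 and 8093 in melatonin, a log2 fold change of 0.43. The acetyl-CoA synthetase *Acss2* (0.90), malic enzyme *Me1* (0.96), a source of NADPH, and the elongation enzyme *Hacd3* (0.95) were higher, whereas the elongase *Elovl6*, which extends palmitate, was lower at -1.43. *Acacb*, the paralog of *Acaca*, had a log2 fold change of 0.025 and was not called.

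Among lipogenic regulators 6 of 14 were higher and 3 lower. *Srebf1*, the SREBP gene that drives fatty acid synthesis, was at 3754, 3871 and 3815 in vehicle and at 3547, 3940 and 3657 in melatonin. These ranges overlapped, with a log2 fold change of -0.039 that was not called. *Srebf2*, its counterpart for sterol synthesis, was lower at -0.73, and *Usf2*, a factor that binds E-boxes, at -1.20. *Insig2*, which holds SREBPs in the endoplasmic reticulum (0.66), and *Nr1h2*, the liver X receptor LXRβ (0.55), were higher. *Nr1h3* was at 1.87 to 11.2 normalized counts and was not called.

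In fatty acid uptake and activation 7 of 16 were lower and 4 higher, and the number lower was 3 without vehicle 1 or without vehicle 2. Among the 7, *Lpl* and *Msr1* are also on the alveolar macrophage list, which was lower as a sum, and the part of such cells was not tested. *Mfsd2a*, a lysophospholipid transporter, was lower at -1.93, and *Lpl*, the lipase that frees fatty acids from lipoproteins, at -1.86 (limma adjusted p = 0.0302). Without melatonin 1 the log2 fold change of *Lpl* was -1.001 (limma adjusted p = 0.00248), without melatonin 3 it was -2.45, and with melatonin 1 alone it was -3.59. The *Lpl* call was lost on leaving out any 1 vehicle sample, at log2 fold changes of -1.92 to -1.78 (limma adjusted p from 0.0613 to 0.0845), and without the mean-variance trend (0.0929). The acyl-CoA synthetases *Acsl3* (0.87) and *Acsl4* (0.77), which activate fatty acids, were higher.

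In triglyceride synthesis 5 of 14 were higher and 3 lower, with 3 higher on leaving out melatonin 2, vehicle 1 or vehicle 3. The phosphatidate phosphatase *Lpin2* was higher at 0.96, and the acyltransferases *Agpat4* (-0.65), *Gpat3* (-0.63) and *Agpat1* (-0.57) were lower. The *Agpat1* call was lost without vehicle 1 (log2 fold change -0.54, limma adjusted p = 0.0554), without vehicle 3 (-0.51, 0.068) and without the trend (0.0538). With melatonin 1 as the only melatonin sample the log2 fold change of *Gpat3* was -0.52. Of 11 lipid droplet genes 4 were higher and 2 lower, or 1 lower on leaving out melatonin 2 or any 1 vehicle sample, with *Pcyt1a* (0.78), *Ldaf1* (0.67) and *Spart* (0.65) higher and *Plin3*, a perilipin like *Plin2*, lower at -0.45. In droplet breakdown 3 of 8 were higher, the lysosomal acid lipase *Lipa* (0.71), the lipase *Abhd6* (0.74) and the droplet-associated *Faf2* (0.63), and the other 5 were not called. Without melatonin 1 the hormone-sensitive lipase *Lipe* was also called lower, a gene named here after its values were seen. *Pnpla2*, which begins triglyceride breakdown, had a log2 fold change of 0.22 and was not called. Without melatonin 2 it was called, at 0.35 (limma adjusted p = 0.0218), and with melatonin 1 alone its log2 fold change was 0.41.

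Beside *Pparg*, 5 of 14 genes of the PPAR family and its partners were higher and 2 lower, with 1 lower on leaving out melatonin 2, vehicle 1 or vehicle 3. *Rxrb*, a retinoid X receptor (0.77), and the coactivator *Ncoa1* (1.25) were higher. *Cebpb*, a factor that acts ahead of *Pparg* in adipocytes, was at 12.1, 59.6 and 189 in vehicle and at 385, 606 and 247 in melatonin, a log2 fold change of 2.86 over vehicle samples that spread widely, and it was 1.85 without vehicle 1 and 3.78 without vehicle 3. The *Cebpb* call was lost without melatonin 2 (limma adjusted p = 0.0641) and without the mean-variance trend (limma adjusted p = 0.0641). *Ppard* was not called (-0.46), and *Ppara* was not listed. Of 11 other PPAR target genes 3 were lower and 3 higher, close to the shares over all genes, with *Angptl4*, an inhibitor of lipoprotein lipase, at -0.86, and the oxidation gene *Etfdh* (0.48) higher. Only 1 was higher without vehicle 1 or vehicle 2, and 1 was lower without vehicle 2 or vehicle 3.

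**Figure D5:**
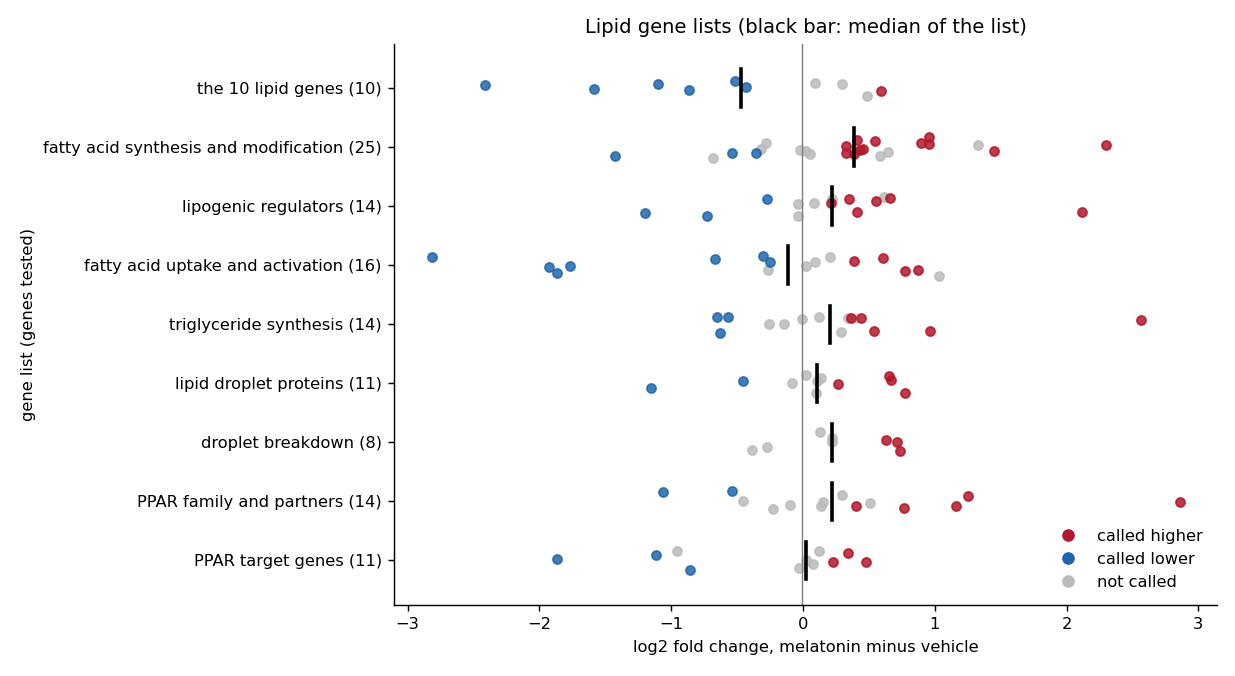
Log2 fold change between melatonin and vehicle (x axis) of each tested gene in the 10 lipid genes and in 8 other lists (y axis, number tested in parentheses), with genes called higher in red, called lower in blue and not called in grey, and the list median as a black bar. The 10 lipid genes had a median of -0.47, while the fatty acid synthesis list had a median of 0.39.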

How the data were processed

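Lung aILC2s with vehicle or melatonin (3 samples each) were profiled by bulk RNA-seq. Per the study's methods, the authors made cDNA with the SMARTer Ultra Low Input RNA v3 kit, aligned reads with STAR to mm39, quantified Gencode M33 genes with an expectation-maximization algorithm, removed genes below 10 counts in all samples and scaled by DESeq2 median ratios. The deposited signal is these normalized counts, which need not be whole and can split reads among gene copies. At a tolerance of 0.01 of a read, 72.0% to 73.6% of low values were whole, so the test was run on log values, and limma voom on estimated counts was an alternative.

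Genes with at least 10 normalized counts in at least 1 sample were tested with limma 3.58.1 in R 4.3.3 on log2(value + 1), with a mean-variance trend, treatment as the only term and Benjamini-Hochberg adjustment over all 14419 genes. Fold changes on that scale understate the change of low genes. In simulated melatonin against vehicle data (13815 genes), 52 of 68 genes changed by 0.6, 63 of 63 changed by 1 and 69 of 69 changed by 2 on the log2 scale were called, and 18 of 13615 unchanged genes. Every simulated gene of a group had the same relative spread (8.81% in vehicle, 12.0% in melatonin). The genes changed were few, and genes of low counts were not among them. These rates therefore do not describe genes that spread more widely, such as *Cd36* and *Scd2* in melatonin. Nor do they describe *Scd1*, which had the fewest counts of the 10 genes in vehicle. Gene positions and exon lengths came from Gencode M39 on GRCm39. The members and lists were chosen with earlier results of these data known. From each further list, up to 4 called genes with the largest change among those with a mean of at least 100 were named, plus a set of regulators and enzymes given by name, and some of the genes so named are not reported here. Alternatives were other pseudocounts, filters, scalings, models and sample sets.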

Additional observations from a re-analysis of the deposited data

How the results depend on the processing

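*Pparg*, *Cd36*, *Fabp5*, *Fasn*, *Acaca* and *Dgat2* kept their direction in all 20 alternatives. They kept their call in every alternative with more than 1 melatonin sample, and *Dgat1* was not called in any of those. The *Plin2* call was lost in 14 of the 20, among them the fit with melatonin 1 alone, which holds no spread of melatonin. Its log2 fold change was -0.43 with every listed gene (limma adjusted p = 0.0509), with a mean of at least 100 (0.0504), without the trend (0.122), with pseudocount 0.1 (0.0552), with the replicate block (0.0528) and at a threshold of 0.01, -0.28 with quantile normalization, -0.39 rescaled to the same total and -0.0088 without melatonin 2 and 3. Leaving out 1 sample in turn gave -0.64 to -0.30 for *Plin2*, -0.064 to 0.58 for *Scd1* and 0.26 to 0.94 for *Scd2*. *Scd2* was 0.75 with sample weights (called) and -0.41 without melatonin 2 and 3, where *Scd1* was -0.26. The number of the 10 genes called higher was 2 with sample weights, and 1 to 2 on leaving out 1 sample. Pathway genes called lower numbered 13 at a threshold of 0.01 and 14 to 22 on leaving out 1 sample, 14 being without vehicle 1. The *Scd1* to *Scd2* ratio changed by -0.38 to 0.11 on leaving out 1 sample. *Srebf1* was 0.020 with quantile normalization. *Acacb* was -0.0031 with pseudocount 10, -0.089 with the transcript length correction, -0.023 with upper quartile scaling, -0.091 without melatonin 2 and 3, and -0.26 to 0.48 on leaving out 1 sample. The causes were not tested.

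Samples with the same replicate number did not deviate together (r = -0.11, 0.14 and -0.19 over genes), so the numbers were not taken as pairs. With the replicate block, 6438 genes were called against 7094 without it, and not every sample correlated best with its own number.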
